A study of Mus musculus with 12 samples.

Results

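NKG2D, its 2 adaptors and 7 further receptors first described on natural killer (NK) cells were followed in CD8 T cells lacking TCF-1. The genes were taken by symbol, which gave 10 members (Klrk1, Hcst, Tyrobp, Klrd1, Klrc1, Klrc2, Klre1, Klrg1, Klrb1c and Ncr1) of the 35907 genes with a transcript in the data. RNA was sequenced from 12 libraries in 4 groups of 3. WT donors had a C57BL/6 background in the labels, and more than one WT strain on it was in use in the study. TCF-1 cKO donors (TCF-7 cKO in the labels, after the gene Tcf7) were TCF-1 flox/flox x CD4cre mice on the same background, in which Cre acts from the double-positive thymocyte stage in all T cells that pass through it. Pre-transplant libraries are labelled as sorted splenic CD8 T cells of these donors. Post-transplant libraries came from donor CD8 T cells sorted by the donor H2Kb molecule from the spleens of lethally irradiated BALB/c recipients at day 7, after transfer of donor CD3 T cells with WT bone marrow. The labels give no ages, donors and recipients were female and matched by age as far as could be, and nothing states that replicates came from separate mice, so that p-values measure the spread between these libraries, which may be technical.

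NKG2D, encoded by Klrk1, is an activating receptor of NK cells, and in mice it also appears on CD8 T cells once they have been activated, where it binds stress-induced ligands on target cells. It has no signalling motif of its own. DAP10, encoded by Hcst, carries a motif that recruits phosphoinositide 3-kinase and Grb2, and DAP12, encoded by Tyrobp, carries an immunoreceptor tyrosine-based activation motif that recruits the kinases Syk and ZAP70. CD94 (Klrd1) pairs with NKG2A (Klrc1) as an inhibitory receptor or with NKG2C (Klrc2) as an activating one, both of which bind the nonclassical class I molecule Qa-1, while KLRG1 is an inhibitory receptor for cadherins that is used as a marker of effector T cells.

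Library totals were 18184814 to 32657005 estimated counts in 9 libraries and 4520270 to 9577076 in the TCF-1 cKO pre-transplant group, where 3 counts, taken as the smallest visible level, stood for up to 0.664 CPM (counts scaled to a common library total). Levels below are CPM after TMM scaling unless given as TPM, the length-scaled transcript abundance used to compare different genes. Tcf7 lay at 117, 75.9 and 166 CPM in WT and 26.2, 34.1 and 62.7 CPM in TCF-1 cKO cells pre-transplant, and at 26.9, 26.4 and 10.7 CPM in WT and 13.6 to 14.6 CPM in TCF-1 cKO cells at day 7. The library labelled WT day 7 replicate 3 therefore lay below all 3 TCF-1 cKO libraries for the targeted gene, and results that rest on it are given with and without it. The genotype difference of Tcf7 was -1.36 pre-transplant and -0.91 at day 7 on the log2 scale (edgeR, adjusted p = 0.216 and 0.312). Summed over 8 CD8 T cell markers the libraries held 1474 to 1682 CPM in WT and 369 to 694 CPM in TCF-1 cKO cells pre-transplant, but 10530 to 14692 CPM at day 7 in both genotypes. The 8 B cell markers gave 4520 to 14348 CPM pre-transplant and 356 to 1056 CPM at day 7, and the 9 myeloid markers gave 683 to 2708 and 80.1 to 291 CPM. B cell markers thus exceeded CD8 T cell markers in all 6 pre-transplant libraries, against their label as sorted CD8 T cells, and what the stage differences owe to other cells was not tested. One label of TCF-1 cKO day 7 replicate 2 names CD4 T cells, but this library held 2.04 CPM of Cd4 and 621 CPM of Cd8a.

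At day 7 TCF-1 cKO cells carried more Klrk1 transcript and less Hcst transcript than WT cells in every pair of libraries, and the Hcst difference alone passed the test. Between pre-transplant and day 7, Hcst, Klrd1, Klrc1 and Klrg1 rose and Tyrobp fell in both genotypes. Each genotype and stage comparison was tested across all genes by edgeR with Benjamini-Hochberg adjustment at 0.1. Pre-transplant, 0 of 10 members passed, where 0.0426% of all genes did, with 1 member at an unadjusted p under 0.05 and 0 passing by limma-voom or DESeq2. At day 7, 0 members were called higher in TCF-1 cKO cells, where 2.24% of all genes were, and 1 was called lower, where 14.7% were. From pre-transplant to day 7, WT cells had 4 members called higher and 2 lower, where 9.47% and 10.2% of all genes were called, and TCF-1 cKO cells had 6 higher and 2 lower, where 19.6% and 16.4% were. Scaling decides much of the stage comparison. On library totals the members split into 4 higher and 3 lower in WT and 5 higher and 3 lower in TCF-1 cKO cells, and all genes into 708 higher and 4128 lower and 1663 higher and 10592 lower. With libraries scaled to their Cd8a and Cd8b1 counts the members split into 3 higher and 4 lower in WT and 4 higher and 5 lower in TCF-1 cKO cells, and all genes into 235 higher and 11449 lower and 244 higher and 16280 lower. Over all genes tested the median log2 stage difference was -0.30 in WT and -0.29 in TCF-1 cKO cells after TMM scaling, -1.25 and -1.89 on library totals, and -2.62 and -4.00 on scaling to Cd8a and Cd8b1, and members are to be read against these medians. The change of the genotype difference between the stages passed for 0 of 10 members and 0.00464% of all genes, again with 1 member at an unadjusted p under 0.05 and 0 by limma-voom or DESeq2. These comparisons share groups with one another, and in bulk RNA fewer cells of a type and less RNA per cell cannot be told apart.

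**Figure D1:**
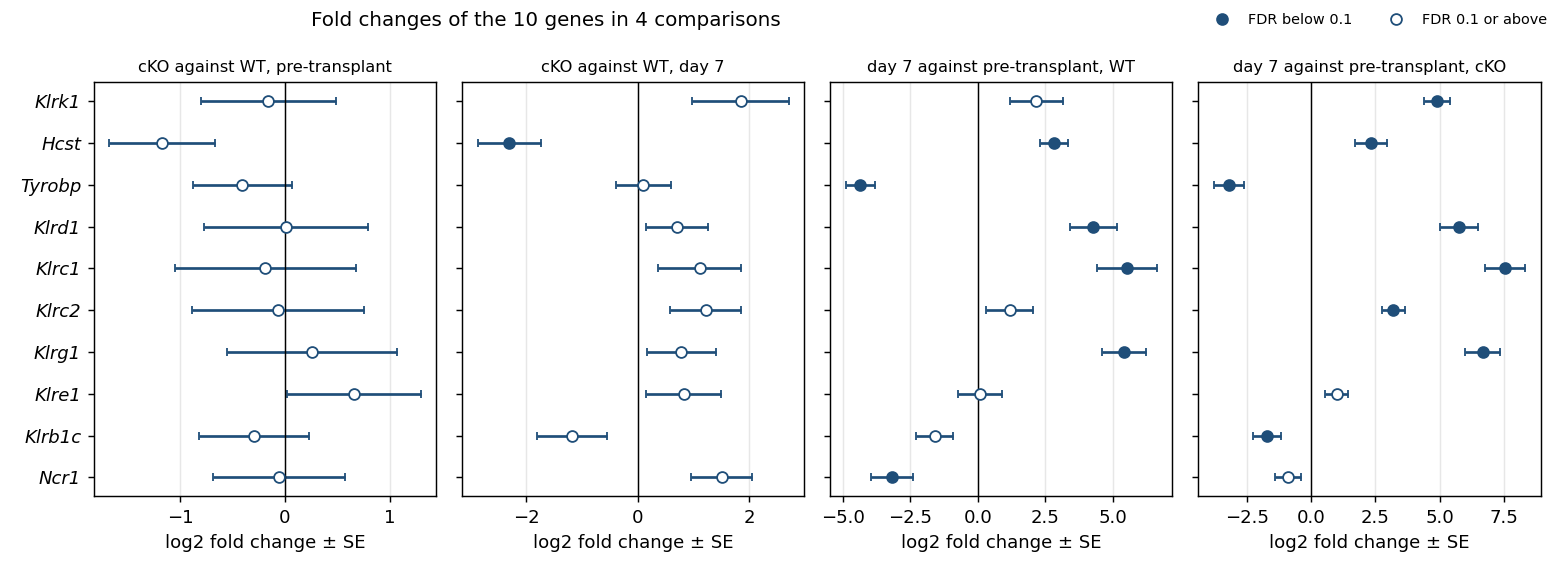
Log2 fold changes of the 10 members (rows) with standard errors in 4 comparisons, each panel with its own horizontal scale, from edgeR fits of 3 libraries against 3. Filled points passed an adjusted p of 0.1: none pre-transplant, Hcst alone at day 7 (-2.30), 6 members between the stages in WT and 8 in TCF-1 cKO cells.

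Klrk1 lies on chromosome 6 from 129610323 to 129623864 on the minus strand (GRCm38, the build of all positions here), in a cluster with Klre1, Klrd1, Klrc2 and Klrc1. It was counted at 75.1, 11.6 and 24.04 CPM in WT and 39.8, 26.8 and 15.0 CPM in TCF-1 cKO cells pre-transplant. At day 7 it reached 149.7, 19.3 and 439.8 CPM in WT and 889, 603 and 961 CPM in TCF-1 cKO cells. The day 7 groups did not overlap, and the 3 WT libraries themselves spread more than any other group. Means were 89.0 ± 91.9 TPM (SD, n = 3) in WT and 347 ± 66.7 TPM (SD, n = 3) in TCF-1 cKO cells at day 7, against 34.1 ± 29.0 and 32.1 ± 20.1 TPM pre-transplant. The 5 gamma delta and NKT cell markers summed to 32.6 to 117 CPM in WT and 174 to 259 CPM in TCF-1 cKO cells at day 7. Of the 5 only Tcrg-C2, which made up most of the sum, separated the genotypes (23.2 to 105 against 148 to 241 CPM). Trdc was at 3.67 to 5.44 and 3.46 to 17.5 CPM, and the part of such cells in the Klrk1 difference was not tested. The fitted genotype difference at day 7 was 1.85 on the log2 scale (standard error 0.86) and did not pass the test (edgeR, adjusted p = 0.209). Without WT replicate 3, the highest WT library, it was 2.79 and passed (edgeR, adjusted p = 0.0534), where 9.39% of all genes were called higher. It did not pass when any other single library was left out. It also passed at 2.62 by limma-voom and at 2.88 by limma on log2(TPM + 1), both with an adjusted p of 0.0996. Pre-transplant the difference was -0.16 (standard error 0.65, edgeR, adjusted p = 0.901). From pre-transplant to day 7 Klrk1 rose by a log2 fold change of 4.89 in TCF-1 cKO cells (standard error 0.50, edgeR, adjusted p = 0.00021) and by 1.12 when libraries were scaled to Cd8a and Cd8b1. The corresponding value in WT cells was 2.17 (standard error 1.00, edgeR, adjusted p = 0.186), which passed without WT day 7 replicate 2 (2.99, edgeR, adjusted p = 0.0186), where 10.5% of all genes were called higher. It also passed by DESeq2 (adjusted p = 0.0497), in 1 fit over 12 libraries (2.46, edgeR, adjusted p = 0.0703) and with the trends on GC content and length removed (2.35, edgeR, adjusted p = 0.0931), and was 0.095 on scaling to Cd8a and Cd8b1. The difference between both stage changes was 2.45 (standard error 1.18, edgeR, adjusted p = 0.33). Among the 12 libraries left out in turn it passed only without WT day 7 replicate 3 (3.72, edgeR, adjusted p = 0.0767), where 1329 of 23991 genes were called higher.

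**Figure D2:**
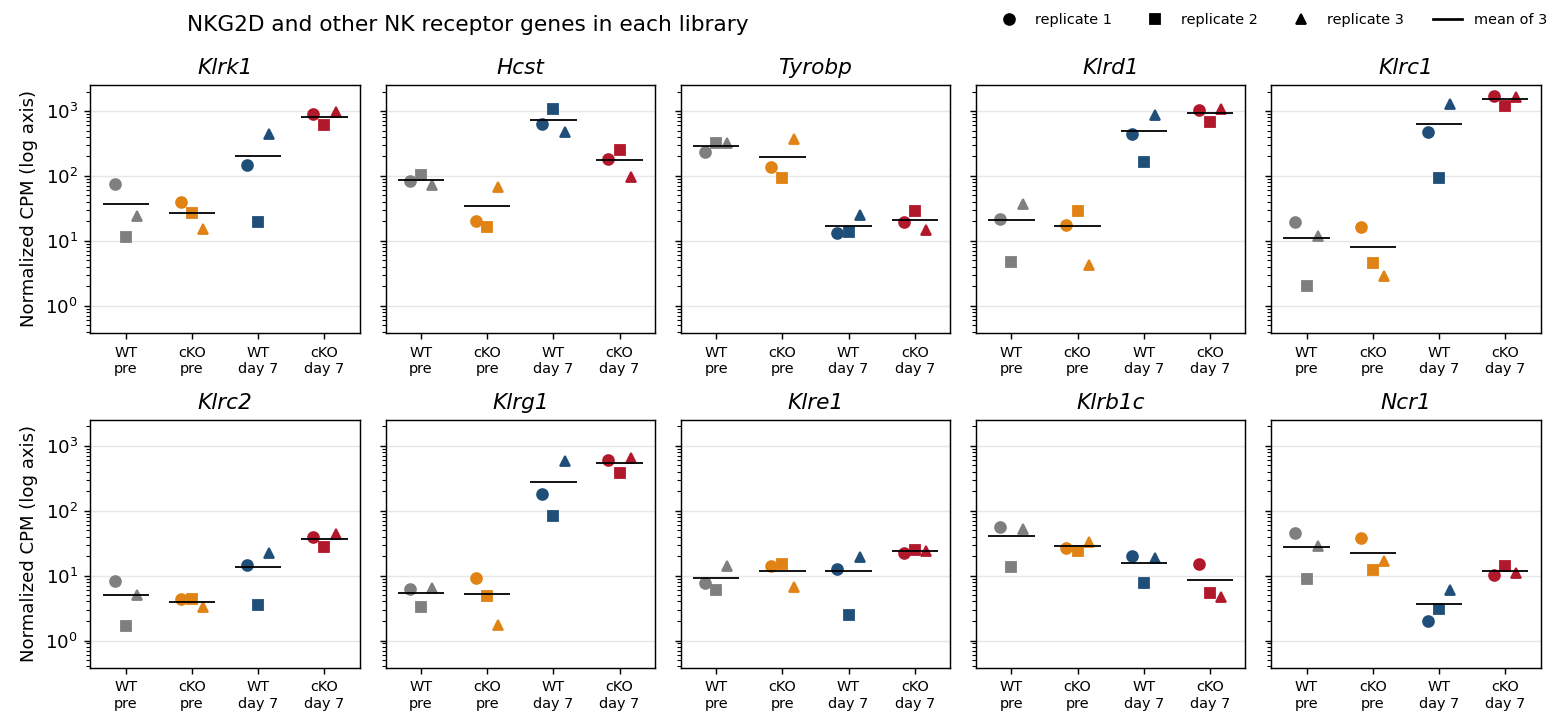
Level of each of the 10 members in every library (normalized CPM, log axis) by group, with a marker for each replicate number and a bar at the group mean. At day 7 the TCF-1 cKO libraries of Klrk1 (603 to 961 CPM) lie above all WT libraries (19.3 to 439.8 CPM), and those of Hcst (97.3 to 249.8 CPM) below them (470.4 to 1090 CPM).

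Klrk1 has 6 annotated transcripts, of which 3 code for a full receptor, and the form decides the start of the protein. Mouse NKG2D is made as a long form, which is known to pair with DAP10, and a short form, which can pair with DAP10 or DAP12. Klrk1-201 is the long form, with 699 coding bases, and its start site lies 1092 bases inside that of Klrk1-205. Klrk1-202 is the short form, with 660 coding bases, and Klrk1-205 starts translation as the short form does but keeps 18 additional bases at a later junction. The coding starts of the long and the short form are shown 5′ to 3′ on the minus strand (chr6:129621205-129622573, spliced), with the 39 bases that only the long form translates in capitals.
Klrk1-201: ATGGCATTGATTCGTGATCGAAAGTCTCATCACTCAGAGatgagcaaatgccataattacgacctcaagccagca
Klrk1-202: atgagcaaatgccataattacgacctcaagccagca
The junction at which Klrk1-205 differs is shown next (chr6:129616309-129616692, spliced), with its additional bases in capitals.
Klrk1-205: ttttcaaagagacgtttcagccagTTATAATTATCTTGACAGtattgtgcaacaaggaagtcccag
Klrk1-202: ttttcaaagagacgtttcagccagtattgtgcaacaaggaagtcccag

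The long form Klrk1-201 held 29.7%, 13.0% and 20.7% of the Klrk1 TPM in WT and 27.0%, 47.9% and 24.9% in TCF-1 cKO cells pre-transplant. At day 7 it held 55.3%, 68.4% and 54.3% in WT and 62.6%, 55.1% and 54.5% in TCF-1 cKO cells. All 6 day 7 libraries thus lay above all 6 pre-transplant libraries, and the genotypes overlapped at both stages. The mean difference between stages was 38.2 percentage points in WT and 24.1 in TCF-1 cKO cells (exact permutation test, two-sided, p = 0.1 each, the smallest that 3 against 3 allow, 0.3 adjusted over 12 comparisons of transcript shares). Of the coding transcripts alone the long form made up 23.6% ± 7.46 in WT and 37.2% ± 14.7 in TCF-1 cKO cells pre-transplant, and 60.95% ± 8.03 and 58.3% ± 4.78 at day 7 (SD, n = 3). At day 7 the genotype difference of the share was -1.95 points by TPM and 2.82 points by estimated counts, with exact permutation p of 0.7 and 0.4 (two-sided). Klrk1-205 went from 21.6% ± 7.62 to 9.54% ± 1.53 in WT and from 30.8% ± 8.48 to 6.34% ± 0.996 in TCF-1 cKO cells (SD, n = 3). The retained-intron forms Klrk1-203, Klrk1-204 and Klrk1-206 each stayed below 5 TPM in every library. Shares of the pre-transplant TCF-1 cKO libraries rest on 222 to 455 estimated counts of Klrk1, and Klrk1-202 is listed at 0 in replicate 2 of that group. The 9 NK cell markers summed to 151 to 333 CPM pre-transplant and 86.3 to 129 CPM at day 7. Within this sum Fcer1g, an adaptor gene of NK and myeloid cells, held 52.7 to 174 and 7.16 to 72.5 CPM. Of the 9 markers, 4 lay lower at day 7 without overlap in each genotype, where 16.3% of all genes did in WT and 23.8% in TCF-1 cKO cells. Klre1 lay higher in TCF-1 cKO cells. Which cells the transcript forms came from was not tested.

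**Figure D3:**
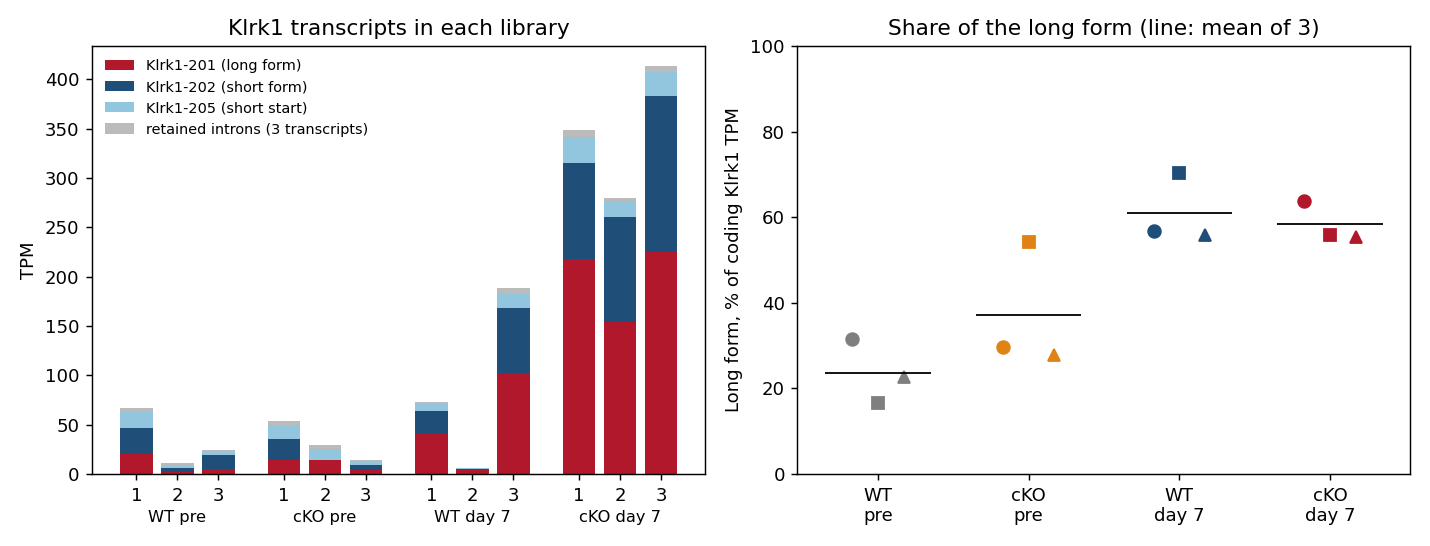
Make-up of the Klrk1 TPM by transcript in each of the 12 libraries (stacked bars). The long form Klrk1-201 makes up 54.3% to 68.4% of the Klrk1 TPM in the day 7 libraries and 13.0% to 47.9% in the pre-transplant libraries.

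Hcst, which encodes DAP10, lies on chromosome 7 from 30417712 to 30419854 on the minus strand. It was counted at 85.0, 103 and 73.5 CPM in WT and 20.4, 16.4 and 68.3 CPM in TCF-1 cKO cells pre-transplant. At day 7 it stood at 625, 1090 and 470.4 CPM in WT and 182, 249.8 and 97.3 CPM in TCF-1 cKO cells. TCF-1 cKO libraries lay below all WT libraries at both stages, although pre-transplant they overlapped when scaled to library totals. At day 7 the difference was -2.30 (standard error 0.57) and passed the test (edgeR, adjusted p = 0.0518), with means of 1556 ± 526 TPM in WT and 369 ± 171 TPM in TCF-1 cKO cells (SD, n = 3). It passed without WT replicate 3 (-2.64, edgeR, adjusted p = 0.00821) and failed when any of the other 5 libraries was left out (edgeR, adjusted p = 0.121 to 0.197). Pre-transplant the difference was -1.17 (standard error 0.51, edgeR, adjusted p = 0.263), and it passed at -2.07 without TCF-1 cKO replicate 3 (edgeR, adjusted p = 0.0144), where 9.56% of all genes were called lower. Hcst rose from pre-transplant to day 7 by 2.81 in WT (standard error 0.52, edgeR, adjusted p = 0.00726), with 0.36 on scaling to Cd8a and Cd8b1. In TCF-1 cKO cells it rose by 2.33 (standard error 0.61, edgeR, adjusted p = 0.0206), but the sign turned to -1.34 on scaling to Cd8a and Cd8b1, and on library totals the change was 0.89 (edgeR, adjusted p = 0.147). The stage changes of both genotypes differed by -0.74 (standard error 0.80, edgeR, adjusted p = 0.681).

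The genotype differences at day 7 followed GC content across all genes, with Spearman's rho of -0.551 over 16026 genes, which are not independent. The lowest decile of genes by GC had a median log2 fold change of 0.66 and the highest decile -2.45. Klrk1 transcripts hold 39.5% GC and Hcst transcripts 57.4%, around a median of 49.7% among the genes compared, so both members lie on the side of that trend on which they differ. With each library's trend on GC and length removed, the difference of Hcst was -1.02 (edgeR, adjusted p = 0.171) and that of Klrk1 1.33 (edgeR, adjusted p = 0.299). Both kept their direction, and 0 of 10 members and 3 genes in all passed. The other members hold 37.5% (Klrd1) to 54.6% (Tyrobp) GC.

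**Figure D4:**
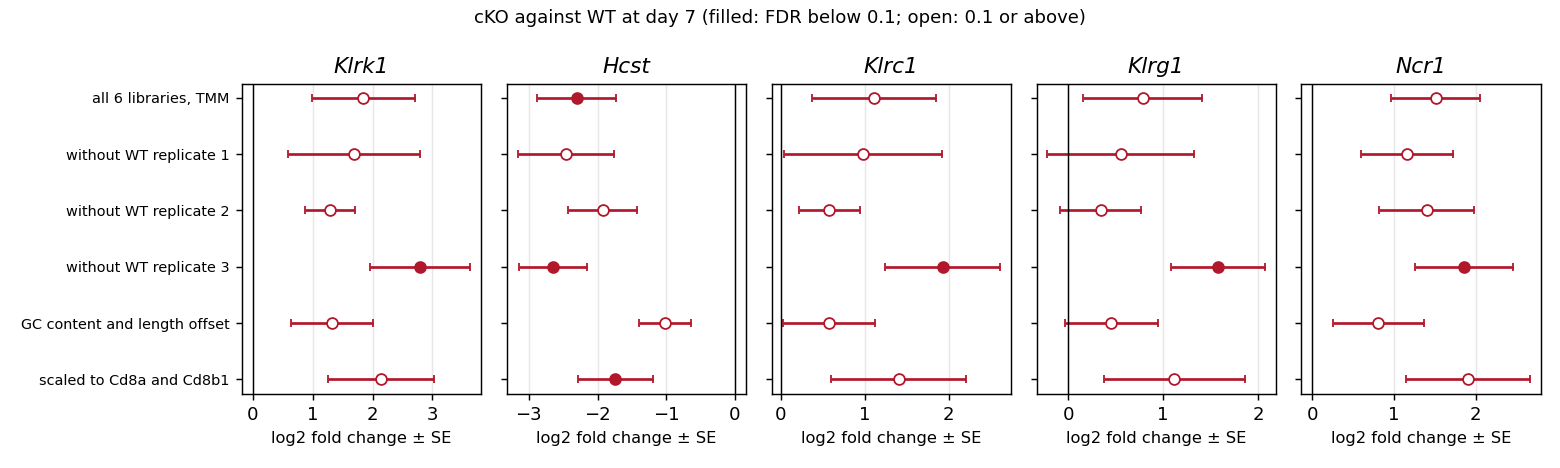
Log2 fold changes of members at day 7, TCF-1 cKO against WT (horizontal axis), under different settings of the edgeR fit. With the GC and length trends removed Klrk1 was at 1.33 and Hcst at -1.02. Without WT day 7 replicate 3 they were at 2.79 and -2.64, each on the same side of 0 as before.

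Hcst-201 held 89.8% to 99.5% of the Hcst TPM in all libraries, and its share was 5.54 percentage points higher at day 7 in WT and 5.23 in TCF-1 cKO cells, without overlap (exact permutation test, two-sided, p = 0.1 each). Hcst-203 differs by the 24 bases shown in capitals, which only Hcst-201 holds at this junction (chr7:30418196-30419727, spliced, minus strand). It was at 0.871 to 21.7 TPM in WT cells pre-transplant and is listed at 0 in all 3 TCF-1 cKO libraries, whose totals are the lowest.
Hcst-201: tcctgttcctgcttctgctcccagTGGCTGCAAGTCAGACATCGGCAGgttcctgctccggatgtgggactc
The retained-intron form Hcst-202 stayed between 0.376 and 35.3 TPM.

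Tyrobp, which encodes DAP12, lies beside Hcst on chromosome 7 from 30413760 to 30417585 on the plus strand, and its 3′ end faces that of Hcst. The annotated genes do not overlap, and 0 of the 31-base words of either occur in another gene. Tyrobp was counted at 233, 317 and 319 CPM in WT and 136, 91.4 and 365 CPM in TCF-1 cKO cells pre-transplant. At day 7 it was down to 13.1, 13.8 and 24.7 CPM in WT and 19.6, 28.9 and 14.5 CPM in TCF-1 cKO cells. The stages did not overlap in either genotype, and the genotypes overlapped at both stages. Tyrobp fell by 4.35 on the log2 scale in WT (standard error 0.54, edgeR, adjusted p = 0.0014) and by 3.23 in TCF-1 cKO cells (standard error 0.58, edgeR, adjusted p = 0.0033). The genotype difference was -0.41 pre-transplant (standard error 0.47, edgeR, adjusted p = 0.636) and 0.10 at day 7 (standard error 0.49, edgeR, adjusted p = 0.908). Without TCF-1 cKO replicate 3 the pre-transplant difference was -1.18 and passed (edgeR, adjusted p = 0.0478). The summed myeloid markers moved with Tyrobp between the stages (683 to 2708 CPM pre-transplant, 80.1 to 291 CPM at day 7). The sum of the 9 NK cell markers also fell (151 to 333 and 86.3 to 129 CPM). In it Fcer1g, an adaptor gene of NK and myeloid cells, held 52.7 to 174 CPM pre-transplant and 7.16 to 72.5 CPM at day 7. Of the 9, 4 lay lower at day 7 without overlap in each genotype, and 1, Klre1, lay higher in TCF-1 cKO cells. The part of either cell type in the fall of Tyrobp was not tested. Tyrobp-201 held 51.3% to 95.9% of the Tyrobp TPM and overlapped between all groups.

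The adaptors could be set against the receptor per length. The trend on GC content was not removed from these ratios, and Klrk1 and Hcst lie on opposite sides of it. Pre-transplant ratios come from libraries in which B cell markers exceeded CD8 T cell markers. Hcst TPM was 7.73 to 50.8 times Klrk1 TPM in WT and 3.62 to 25.9 times in TCF-1 cKO cells pre-transplant. At day 7 the ratio was 22.9, 323 and 5.24 in WT and 1.05, 1.94 and 0.485 in TCF-1 cKO cells. The day 7 groups did not overlap, and a single library, TCF-1 cKO replicate 3, held more Klrk1 than Hcst transcript. Tyrobp TPM was 13.8 to 106 times Klrk1 TPM pre-transplant, and 0.179 to 2.71 times in WT and 0.0464 to 0.147 times in TCF-1 cKO cells at day 7. Of both adaptors, Tyrobp exceeded Hcst 1.78 to 4.27 times pre-transplant and lay at 0.00841 to 0.0957 of it at day 7.

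**Figure D5:**
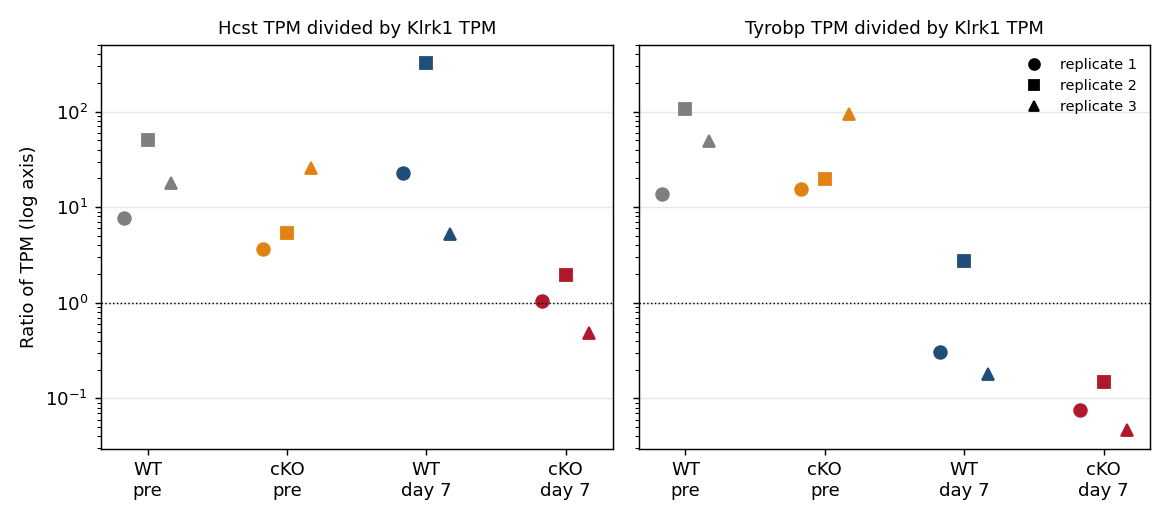
TPM of Hcst (left) and Tyrobp (right) divided by the TPM of Klrk1 in each library (log axis, dotted line at equal TPM), with a marker for each replicate number. For Hcst the TCF-1 cKO libraries at day 7 (0.485 to 1.94) lie below all other libraries (3.62 to 323), and for Tyrobp they reach 0.0464 to 0.147. The trend on GC content was not removed.

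Klrd1, which encodes the common CD94 chain, lies on chromosome 6 from 129591782 to 129598775 on the plus strand. It went from 22.0, 4.69 and 36.3 CPM in WT and 17.7, 29.1 and 4.27 CPM in TCF-1 cKO cells pre-transplant to 439.9, 166 and 879 CPM in WT and 1031, 684 and 1089 CPM in TCF-1 cKO cells. The stages did not overlap, and Klrd1 rose by 4.29 in WT (standard error 0.87, edgeR, adjusted p = 0.0113) and 5.76 in TCF-1 cKO cells (standard error 0.73, edgeR, adjusted p = 0.00054), with 2.20 and 1.95 on scaling to Cd8a and Cd8b1. The day 7 genotypes overlapped, with a difference of 0.71 (standard error 0.56, edgeR, adjusted p = 0.433).

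Klrc1, which encodes the inhibitory NKG2A chain, is on chromosome 6 from 129666015 to 129678973 on the minus strand. It had the largest stage change of the 10 members in both genotypes, from 19.2, 1.996 and 11.8 CPM to 479, 94.1 and 1294 CPM in WT and from 16.4, 4.61 and 2.91 CPM to 1693, 1198 and 1646 CPM in TCF-1 cKO cells. No day 7 library overlapped with a pre-transplant one. The rise was 5.53 in WT (standard error 1.10, edgeR, adjusted p = 0.0104) and 7.55 in TCF-1 cKO cells (standard error 0.78, edgeR, adjusted p = 0.00021). The genotype difference at day 7 was 1.11 (standard error 0.74, edgeR, adjusted p = 0.359) with overlapping groups. Per length, Klrc1 reached 0.188 to 0.781 of the Klrd1 TPM in WT and 0.865 to 0.989 in TCF-1 cKO cells at day 7, without overlap.

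Klrc2, which encodes the activating NKG2C chain, lies between Klrk1 and Klrc1, from 129647496 to 129660689, and stayed far lower. It was at 1.68 to 8.38 CPM in WT and 3.25 to 4.37 CPM in TCF-1 cKO cells pre-transplant, and at 14.4, 3.59 and 22.6 CPM in WT and 39.9, 27.2 and 43.6 CPM in TCF-1 cKO cells at day 7. The day 7 genotypes did not overlap, but the difference of 1.22 did not pass (standard error 0.64, edgeR, adjusted p = 0.252). The rise of 3.20 in TCF-1 cKO cells passed (standard error 0.44, edgeR, adjusted p = 0.00077) and turned to -0.53 on scaling to Cd8a and Cd8b1, and the value in WT was 1.18 (standard error 0.87, edgeR, adjusted p = 0.421). Klrc1 and Klrc2 are near-identical in part. Of the 31-base words in Klrc1 transcripts 49.6% also occur in Klrc2 transcripts, and 16.8% of those in Klrc2 occur in Klrc1, so the split of reads between both genes is uncertain.

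Klrg1, whose product is the inhibitory receptor KLRG1, is on chromosome 6 from 122270596 to 122282882 on the minus strand, outside the cluster. It was at 6.29, 3.33 and 6.46 CPM in WT and 9.19, 4.80 and 1.76 CPM in TCF-1 cKO cells pre-transplant, and at 183, 83.7 and 576 CPM in WT and 601, 382 and 651 CPM in TCF-1 cKO cells at day 7. It rose without overlap by 5.41 in WT (standard error 0.81, edgeR, adjusted p = 0.0032) and 6.68 in TCF-1 cKO cells (standard error 0.69, edgeR, adjusted p = 0.00021). The day 7 genotypes overlapped through WT replicate 3, and the difference was 0.79 (standard error 0.63, edgeR, adjusted p = 0.443). Without that replicate, Klrk1, Klrc1 (1.93, adjusted p = 0.0862), Klrg1 (1.58, adjusted p = 0.0606) and Ncr1 (1.86, adjusted p = 0.0665) were called higher by edgeR in TCF-1 cKO cells and Hcst lower, where 9.39% and 19.3% of all genes were called. That is 4 members higher in place of 0.

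Klre1 encodes a lectin-like receptor that pairs with KLRI chains on NK cells, and lies on chromosome 6 from 129577905 to 129585827. It stayed between 2.50 and 24.7 CPM in all libraries and passed in no comparison by edgeR on the estimated counts after TMM scaling. Its rise in TCF-1 cKO cells passed by limma-voom and DESeq2 (adjusted p = 0.0822 and 0.055), and on counts scaled from TPM (1.33, edgeR, adjusted p = 0.0529). On scaling to Cd8a and Cd8b1 it was also called higher in TCF-1 cKO cells pre-transplant (1.95, edgeR, adjusted p = 0.0599). On that scaling 5235 of 18772 genes were called higher pre-transplant, with a median log2 difference of 1.26 over all genes tested. At day 7 it was at 12.8, 2.50 and 19.5 CPM in WT and 22.2, 24.7 and 24.3 CPM in TCF-1 cKO cells, a difference of 0.83 (standard error 0.67, edgeR, adjusted p = 0.453) without overlap. Its stage values were 0.087 in WT, which fell to -2.06 on scaling to Cd8a and Cd8b1, and 0.98 in TCF-1 cKO cells, which turned to -2.80 there (edgeR, adjusted p = 0.0743 and 0.000611).

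Klrb1c encodes NK1.1, the antigen by which NK cells of C57BL/6 mice are usually sorted, and lies on chromosome 6 from 128778485 to 128789215. It was at 55.4, 13.7 and 51.6 CPM in WT and 26.7, 24.2 and 33.5 CPM in TCF-1 cKO cells pre-transplant, and at 20.0, 7.80 and 19.0 CPM in WT and 15.2, 5.49 and 4.69 CPM in TCF-1 cKO cells at day 7. It fell by 1.74 in TCF-1 cKO cells (standard error 0.54, edgeR, adjusted p = 0.0387), a call that was lost without day 7 replicate 2 or replicate 3 (edgeR, adjusted p = 0.137 and 0.132). The value in WT was -1.60 (standard error 0.70, edgeR, adjusted p = 0.166), and the genotype difference at day 7 was -1.18 (standard error 0.63, edgeR, adjusted p = 0.263). Of all its 31-base words 21.2% also occur in other genes, 13.1% in Gm44511 and 8.28% in Klrb1a, which leaves its counts uncertain.

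Ncr1 encodes the natural cytotoxicity receptor NKp46, which is largely restricted to NK cells and other innate lymphoid cells, and lies on chromosome 7 from 4337724 to 4345164. It was at 44.6, 8.76 and 28.8 CPM in WT and 37.6, 12.003 and 16.6 CPM in TCF-1 cKO cells pre-transplant. At day 7 it was at 1.97, 3.04 and 6.06 CPM in WT and 10.3, 14.0 and 10.99 CPM in TCF-1 cKO cells. The day 7 genotypes did not overlap, with a difference of 1.51 (standard error 0.55, edgeR, adjusted p = 0.12) that passed by DESeq2 (adjusted p = 0.0543). Ncr1 fell by 3.18 in WT between the stages (standard error 0.79, edgeR, adjusted p = 0.0257), a call that was lost without pre-transplant replicate 1 or day 7 replicate 1 (edgeR, adjusted p = 0.109 and 0.144). In TCF-1 cKO cells the value was -0.92 (standard error 0.51, edgeR, adjusted p = 0.215), but it passed at -2.54 on library totals (edgeR, adjusted p = 0.00348), at -2.67 and -2.45 by limma on the TPM scales (adjusted p = 0.00292 and 0.00295), at -1.56 with the GC and length trends removed (edgeR, adjusted p = 0.0422) and at -4.69 on scaling to Cd8a and Cd8b1. In these settings, in the same order, 10592, 11692, 11656, 3384 and 16280 of 18550 genes were called lower. The medians over all genes tested were -1.89, -1.98, -1.23, -0.22 and -4.00, against which Ncr1 is to be read. The stage changes of Ncr1 and Klrb1c moved with the NK cell markers, a list that holds both genes and Klre1. Of the 9 markers of that list 4 lay lower at day 7 without overlap in WT (Ncr1, Klra4, Klra8 and Fcer1g) and 0 higher, and in TCF-1 cKO cells 4 lay lower (Klrb1c, Klra4, Klra9 and Fcer1g) and 1 higher (Klre1). The part of NK cells in these values was not tested.

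Groups that did not overlap were counted for every member. Pre-transplant, Hcst was lower without overlap, where 14.3% of all genes were, and 0 members were higher, where 16.1% were. At day 7, Klrk1, Klrc2, Klre1 and Ncr1 were higher and Hcst was lower without overlap, where 23.4% and 17.3% of all genes were. In WT cells 4 members lay higher and 2 lower at day 7 without overlap, where 15.9% and 16.3% of genes did, and in TCF-1 cKO cells 7 lay higher and 2 lower, where 23.1% and 23.8% did. Each of these 21 separations among 40 has the smallest p that 3 libraries against 3 allow, 0.1 in a two-sided exact permutation test and 0.19 after adjustment.

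The promoters of Klrk1, Hcst and Klrc1 are shown because Klrk1 and Hcst moved in opposite directions between the genotypes at day 7, while Klrc1 is the member of the Klrk1 cluster that moved most between stages. RefSeq promoters (GRCm38.p6, 250 bases before to 50 after the start) were found for 7 of the 10 members. Capitals mark 4 short cores searched on both strands: GGTGTG of T-box factors, CTTTGA of TCF and LEF factors, TGTGGT of Runx factors and AGGAAG of ETS factors, present in 19.1%, 16.0%, 16.8% and 35.4% of all 32851 promoters of this length. The first is chr6:129623815-129624114, the second chr7:30419805-30420104 and the third chr6:129678924-129679223, each written 5′ to 3′ on its gene's minus strand.
Klrk1: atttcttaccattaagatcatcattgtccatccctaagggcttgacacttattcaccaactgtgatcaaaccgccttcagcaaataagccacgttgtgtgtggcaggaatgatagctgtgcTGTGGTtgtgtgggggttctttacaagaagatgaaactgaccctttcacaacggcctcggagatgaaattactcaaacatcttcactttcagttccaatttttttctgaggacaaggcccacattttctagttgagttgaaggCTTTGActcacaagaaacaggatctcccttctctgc
Hcst: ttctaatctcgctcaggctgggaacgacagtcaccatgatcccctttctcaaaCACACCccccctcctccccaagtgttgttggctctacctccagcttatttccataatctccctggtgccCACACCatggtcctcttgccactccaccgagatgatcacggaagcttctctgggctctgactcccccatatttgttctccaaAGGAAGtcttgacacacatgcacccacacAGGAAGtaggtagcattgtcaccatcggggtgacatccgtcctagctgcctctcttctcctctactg
Klrc1: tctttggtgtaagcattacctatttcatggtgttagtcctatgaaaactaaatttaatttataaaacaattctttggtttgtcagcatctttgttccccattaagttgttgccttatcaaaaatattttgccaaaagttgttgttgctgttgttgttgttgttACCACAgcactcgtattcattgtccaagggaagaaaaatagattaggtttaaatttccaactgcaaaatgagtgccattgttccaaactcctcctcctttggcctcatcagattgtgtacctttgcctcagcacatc
The Klrk1 window stands at the start of Klrk1-205, and the start of the long form Klrk1-201, 1092 bases further in, lies outside it. The Klrk1 window holds 1 Runx core 129 bases before the start and 1 TCF and LEF core 15 bases after it. Hcst has T-box cores at -197 and -128 and ETS cores at -46 and -17, and Klrc1 has a Runx core at -87. These are matches of letters and no measured binding.

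Other genes of the pathway were counted from lists. The calls at day 7 in these lists rest on the fit of all 6 libraries: with the GC and length trends removed 0 genes of the whole table were called lower and 3 higher, and without any 1 library other than WT replicate 3 there were 0 called lower and 0 to 2 higher. Stage calls are to be read against all genes, of which 9.47% were called higher and 10.2% lower in WT and 19.6% and 16.4% in TCF-1 cKO cells. Cd8a and Cd8b1 themselves rose by 2.14 and 2.47 in WT and by 4.45 and 3.53 in TCF-1 cKO cells. The list values are given without scaling to these genes. Of 14 genes that signal below NKG2D and its adaptors, 1 was higher and 4 were lower in TCF-1 cKO cells at day 7. Sh2d1b1, which encodes the adaptor EAT-2, was higher by 4.45 (0.21 ± 0.20 CPM in WT, 5.01 ± 2.42 CPM in TCF-1 cKO cells, SD, n = 3). Its WT level is near the floor of 3 counts, which stood for 0.0919 to 0.664 CPM over the libraries on library totals. The size of this difference and of its stage change in WT is therefore uncertain. Zap70, Vav1 and Lck, which encode kinases and an exchange factor proximal to antigen and NK receptors, were lower by log2 fold changes of -2.67, -2.77 and -2.48 (edgeR, adjusted p = 0.051 to 0.0613). Vav1 and Zap70 are thus among the calls that share the direction of Hcst, in a comparison where 14.7% of all genes were lower. Between stages 3 of the 14 rose and 3 fell in WT cells (Zap70 4.11, Sh2d1a 3.65 and Lck 2.90, against Sh2d1b1 -5.87, Syk -5.08 and Plcg2 -4.47), and 4 rose and 4 fell in TCF-1 cKO cells. Syk and Plcg2, which B cells and myeloid cells also express, fell in step with the markers of those cells, whose part was not tested. The list's median at day 7 was -1.38, against 0.15 over all genes tested.

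Of the 8 NKG2D ligand symbols 5 were annotated and 3 had enough counts to be tested, and Ulbp1, which encodes the ligand MULT1, rose by 2.54 in TCF-1 cKO cells from pre-transplant to day 7 (edgeR, adjusted p = 0.0108). No ligand passed in the other comparisons, where 0 had an unadjusted p under 0.05 within either stage or in WT and limma-voom and DESeq2 called 0. Among ligands of the other receptors, H2-T23, which encodes Qa-1, the partner of CD94 with NKG2A or NKG2C, was lower in TCF-1 cKO cells at day 7 (-2.22, edgeR, adjusted p = 0.0577), as were the classical class I genes H2-D1 (-3.44) and H2-K1 (-2.55). Clec2i, which encodes a ligand of the NKR-P1 family, was higher (2.22, edgeR, adjusted p = 0.0869). Clec2d, another NKR-P1 ligand, rose between stages in WT (3.09) and TCF-1 cKO cells (3.21).

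Among the other lectin-like receptors of NK cells 0 of 12 passed at day 7 (0 with an unadjusted p under 0.05, 0 by limma-voom and DESeq2). In TCF-1 cKO cells 4 of 14 rose between stages, among them Klrb1b (5.24), Klra3 (3.50) and Klrc3 (3.65), and 5 fell, where 19.6% and 16.4% of all genes did, among them Klra4 (-7.03), Klrb1a (-3.87) and Klra9 (-3.51). In WT cells Klra4 (-6.75), Klri2 (-3.70) and Klra9 (-3.80) fell and 0 of 12 rose. Of 13 further receptors of NK cells, 7 rose and 1 fell in WT cells between stages, and 10 rose and 0 fell in TCF-1 cKO cells, where 9.47% and 10.2% and then 19.6% and 16.4% of all genes were called. The latter included Cd160 (6.84), Cd226 (6.08) and Il18rap (4.73), and in WT Tigit (4.66), Il2rb (3.49) and Cd160 (3.19) rose. At day 7 Il2rb, which encodes a chain of the interleukin receptors of T and NK cells, and the inhibitory receptor gene Tigit were lower in TCF-1 cKO cells (-3.53 and -2.34), and 0 of 13 were higher.

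Cd28, the costimulatory receptor that also recruits phosphoinositide 3-kinase, had a genotype difference of -1.68 pre-transplant and 0.35 at day 7 (edgeR, adjusted p = 0.224 and 0.714), and the change between both was 2.53 (edgeR, adjusted p = 0.254). Tbx21, which encodes T-bet, was lower in TCF-1 cKO cells at day 7 (-3.10, edgeR, adjusted p = 0.051). Cd28 (2.73), Tbx21 (2.67) and Eomes (1.76) rose in TCF-1 cKO cells between stages after TMM scaling. Cd8a (4.45) and Cd8b1 (3.53) rose by more. What the rises of Cd28, Tbx21 and Eomes owe to more CD8 T cell RNA in the day 7 libraries was not tested. Of 4 further adaptors, Cd3e was lower in TCF-1 cKO cells at day 7 (-2.81), Cd3g, Cd3e and Cd247 rose in both genotypes between stages, and Fcer1g, an adaptor of NK and myeloid cells, fell in TCF-1 cKO cells (-2.36). Pre-transplant, 0 of the 58 genes tested from these 7 lists passed by edgeR, 14 had an unadjusted p under 0.05, and limma-voom called 0 and DESeq2 10.

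Over all 12 libraries the level of Klrk1 (log2 CPM + 0.5) was matched among the members most closely by Klrc2 (Pearson's r = 0.99), Klrc1 (0.928), Klrg1 (0.891) and Klrd1 (0.886), while Hcst (0.312) and Tyrobp (-0.695) went apart from it. Klre1 stood at 0.768, Ncr1 at -0.147 and Klrb1c at -0.49. Among all other protein-coding genes the nearest were Rbmx2 (0.989), Glmn (0.987), Mrps22 (0.986), Emc2 (0.985) and Eef1e1 (0.984), none of them a receptor gene. Their transcripts hold 39.4% to 47.1% GC, below the median of the genes tested, as do those of Klrk1 and Klrc2. The 12 libraries share 4 groups and 2 stages, so these are descriptions of the group pattern.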

How the data were processed

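RNA from 12 libraries, grouped by sample title (4 groups of 3), was prepared with SMART-Seq HT and Nextera XT, which do not mark strand, and sequenced as read pairs. The authors pseudoaligned reads with kallisto (version 0.46.2, with mm9 and limma also named in the submitters' processing notes) and deposited, for 117497 transcripts, estimated counts that are not scaled for depth or length. The deposited TPM values were also made by kallisto, from those counts and effective transcript lengths. The transcript release is not given in the sources used here.

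Transcripts were joined to GENCODE M21 (GRCm38). A gene was found for 116428 transcripts, holding 99.6% to 99.7% of each library's counts. Estimated counts and TPM were summed per gene, and counts were rounded to whole numbers. A floor of 3 counts covers counting error only, as reads carry no molecular identifiers. Groups were compared with edgeR 4.0.16 (TMM, filterByExpr, robust quasi-likelihood test, Benjamini-Hochberg adjustment over all genes tested, FDR 0.1, as the study's threshold), within each stage or genotype, and with an interaction over 12 libraries. Log2 fold changes are TCF-1 cKO against WT, or day 7 against pre-transplant. Standard errors came from the fold change and the F statistic. Single values were compared by two-sided exact permutation tests. The fits were also run on simulated counts with the same spread for every gene and no difference in cell make-up between groups. That simulation does not cover the spread and make-up of these libraries.

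The members and lists were chosen with earlier results of these data known. All 10 members were named. From each of 7 pathway lists, up to 3 genes with the smallest p in each direction past the FDR could be named, with every Klrk1, Hcst and Tyrobp transcript at a mean of 0.5 TPM or more, and the 5 protein-coding genes most correlated with Klrk1. Cd28 was named beside this rule as the costimulatory counterpart of NKG2D, and Tcf7, Cd4 and Cd8a as label checks. Marker lists covered NK, CD8 T, CD4 T, gamma delta and NKT, B, myeloid and erythroid cells. Those not given in the results were the CD4 T cell list (34.9 to 173 CPM pre-transplant, 5.49 to 110 CPM at day 7), the gamma delta and NKT cell list before transplant (11.3 to 43.2 CPM) and the erythroid list (2109 to 17071 CPM pre-transplant, 317 to 2616 CPM at day 7). No marker was at 0 in every library of a group.

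Alternatives were limma-voom (limma 3.58.1), DESeq2 1.42.0, its size factors, library totals, other filters, counts scaled from TPM, limma on log2(TPM + 1) and log2(TPM + 0.1), a replicate block, an offset for GC content and length (loess, span 0.4, degree 2), 1 fit over 12 libraries and leaving out each library. Scaling to Cd8a and Cd8b1 was chosen after seeing the data. Promoters were taken from RefSeq (GRCm38.p6), and transcript sequences from the GENCODE transcripts. Tables were handled in Python 3.11.15 (SciPy 1.17.1, pandas 2.3.3) and models were fitted in R 4.3.3. Flow cytometry and other assays of the study were not analysed here.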

Additional observations from a re-analysis of the deposited data

How the results depend on the processing

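Fold changes were followed for all 10 members at day 7 and between stages, for Klrk1, Hcst and Tyrobp pre-transplant and for Klrk1 and Hcst in the change of the genotype difference. Of these 710 alternative values, 633 kept their direction and their side of the threshold, 15 lost and 28 gained a call and 34 turned direction. Of the other 7 members pre-transplant 47 of 140 values turned, with 3 of all 10 members positive in the edgeR fit, 8 on library totals, 7 on the TPM scales, 9 on scaling to Cd8a and Cd8b1 and 0 with the GC and length offset, so no pre-transplant direction is to be read from them. Of the other 8 members in the change of the genotype difference 5 of 200 turned. The number of members called pre-transplant (0) was 1 on scaling to Cd8a and Cd8b1, and 0 to 2 when single libraries were left out. At day 7 (1) it was 2 by limma-voom, DESeq2, a filter of CPM above 1 in 3 libraries and limma on log2(TPM + 1), 0 with the GC and length offset with or without the block, and 0 to 5 without single libraries, 5 without WT replicate 3 and 0 without TCF-1 cKO replicates or WT replicates 1 and 2. Between stages it ranged from 5 to 7 in WT and from 7 to 8 in TCF-1 cKO cells without single libraries, and for the change of the genotype difference from 0 to 1 (Klrk1, without WT day 7 replicate 3). Without single libraries 4 to 6 of 12 comparisons of transcript shares did not overlap.

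All genes called pre-transplant (8) numbered 2 by limma-voom, 1457 by DESeq2, 4 with DESeq2 size factors, 13 on library totals, 654 without a filter, 3 with counts scaled from TPM, 341 and 240 by limma on log2(TPM + 1) and log2(TPM + 0.1), 0 with the replicate block, 73 with the offset, 167 with both, 5273 on scaling to Cd8a and Cd8b1, 3 in 1 fit over 12 libraries and 0 to 2938 without single libraries, most without TCF-1 cKO replicate 3. At day 7 (2711) they numbered 4528 by DESeq2, 3 with the offset, 2 with offset and block, and 0 to 5222 without single libraries, most without WT replicate 3. In WT between stages (3313) they numbered 6743 and 6678 by limma on the 2 log2(TPM) scales, 11684 on scaling to Cd8a and Cd8b1, and 1522 to 4173 without single libraries. In TCF-1 cKO cells (6672) they numbered 12255 on library totals, 13183 and 13226 by limma on the TPM scales, 16524 on scaling to Cd8a and Cd8b1, and 5152 to 7047 without single libraries. For the change of the genotype difference (1) they numbered 1731 by DESeq2, 5 on library totals, 177 without a filter, 111 and 52 on the TPM scales, 0 with the block with or without the offset, 1739 on scaling to Cd8a and Cd8b1 and 0 to 2119 without single libraries.

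Values that turned direction were small in most cases. Among the values followed, they were pre-transplant Klrk1 (0.25 on library totals, 0.073 and 0.081 on the TPM scales, 0.069 with the block, 1.11 on scaling to Cd8a and Cd8b1, -0.61 to 0.84 without single libraries) and Tyrobp (0.75 on scaling to Cd8a and Cd8b1). At day 7 they were Tyrobp (-0.0093 without a filter, -0.32 to 0.32 without single libraries) and Klrd1 (-0.023 with the offset). In WT between stages they were Klrc2 (-0.40 and -0.65 on the TPM scales, -0.97 on scaling to Cd8a and Cd8b1) and Klre1 (-0.23 by limma-voom, -0.72 on library totals, -0.92 and -1.18 on the TPM scales, -0.23 with the block, -2.06 on scaling to Cd8a and Cd8b1, -0.27 to 0.80 without single libraries). In TCF-1 cKO cells they were Hcst (-1.34) and Klrc2 (-0.53) on scaling to Cd8a and Cd8b1, and Klre1 (-0.69 on library totals, -0.46 and -0.48 on the TPM scales, -2.80 on scaling to Cd8a and Cd8b1). The stage dependence of the Hcst difference was 0.26 with the offset, 0.25 with offset and block, and -1.30 to 0.10 without single libraries, and the long-form share of Klrk1 at day 7 was 2.82 points by estimated counts. The causes were not tested.

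Whether replicate numbers pair the libraries could not be decided from 3 libraries per group. Deviations of differently numbered libraries correlated at -0.161 to 0.132. The correlation of same-numbered libraries' deviations from their group means lay between -0.141 and 0.192, above 0.1 for 2 of 12 pairs. With the replicate block 1849 genes passed at day 7, 3061 in WT and 5454 in TCF-1 cKO cells between stages, and the members called were 0, 1, 6, 8 and 0 in the 5 comparisons, as without it.

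Depth limits the pre-transplant TCF-1 cKO libraries most, where Klrk1 rests on 222 to 455 estimated counts.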
